A study of Mus musculus with 8 samples.

Results

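Endolymph is the fluid that bathes the tops of the sensory hair cells of the inner ear, and its acidity and volume are held by transport proteins in the epithelia around it. Pendrin exchanges chloride for bicarbonate, the vacuolar proton pump secretes acid, carbonic anhydrases supply bicarbonate and protons from carbon dioxide, and aquaporins let water follow the ions. Loss of pendrin, of its transcription factor FOXI1 or of the epithelial proton pump subunits is known to cause deafness with an enlarged vestibular aqueduct. The mRNAs of 10 such genes, taken by symbol from the 21895 genes in the deposited table, were compared between cochleae of WT mice and of mice without miR-29a (KO). They were pendrin (Slc26a4) and Foxi1, the proton pump subunits Atp6v1b1 and Atp6v0a4, the carbonic anhydrases Car2, Car3 and Car12, and the aquaporins Aqp1, Aqp4 and Aqp5.

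RNA-seq of whole cochleae gave 4 WT libraries, WT1 to WT4, and 4 KO libraries (miR-29a-/-), KO1 to KO4. Both groups were of a C57BL/6 strain bred from heterozygous mice, and the KO mice lacked miR-29a in every cell from the germline on. The sample records give an age of 21 days, whereas the methods of the study give an older age in months. Nothing in the labels says that the libraries came from separate animals or whether cochleae were pooled, so the p-values measure the spread between these libraries only. Values were FPKM, which are fragment numbers divided by transcript length and by the mapped fragments of the library, so levels can be compared between genes. Markers of the cochlea were present in every library, with Coch, the main protein of spiral ligament fibrocytes, at 1231 to 1927 FPKM and the hair cell gene Otof at 4.16 to 9.40 FPKM. miR-29a itself is not in the table, and the genotype labels could not be checked against it.

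The libraries were not alike within groups, and WT1 stood apart from the other WT libraries. Over the tested genes the correlation of log2 values was 0.725 between WT1 and WT3 and 0.92 between WT1 and KO1, while pairs of KO libraries lay between 0.924 and 0.957. Therefore, results that turned on WT1 are given with and without it. The table holds no counts, so the depth behind a value is unknown, and the relative depth estimated from values under 0.1 FPKM was 0.951 to 1.17 times the median library.

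Only Aqp1, the water channel of fibrocytes, capillaries and red cells, differed between the groups at an unadjusted p under 0.05. Its mRNA was 1.89-fold higher in KO than in WT, from 32.0 ± 6.59 to 60.5 ± 14.9 FPKM (mean ± SD, n = 4 each). Car2 had a higher mean in KO with overlapping groups, Aqp4 had a lower one, and pendrin, Car12 and Aqp5 had values in the same range in both groups. Foxi1 and Atp6v1b1 were under 0.15 FPKM in every library. Of the 10 genes, 8 passed the minimum mean of 0.5 FPKM and were tested with limma on log2(FPKM + 0.1). At an unadjusted p under 0.05, 1 of the 8 was higher in KO and 0 were lower, against 4.61% and 0.507% of all 14990 tested genes. No tested gene passed a Benjamini-Hochberg adjusted p under 0.05, although 767 genes (5.12%) had an unadjusted p under 0.05. The tested genes as a whole had a median log2 fold change of 0.10, and 4 of the 8 members lay above 0 and 4 below it.

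**Figure D1:**
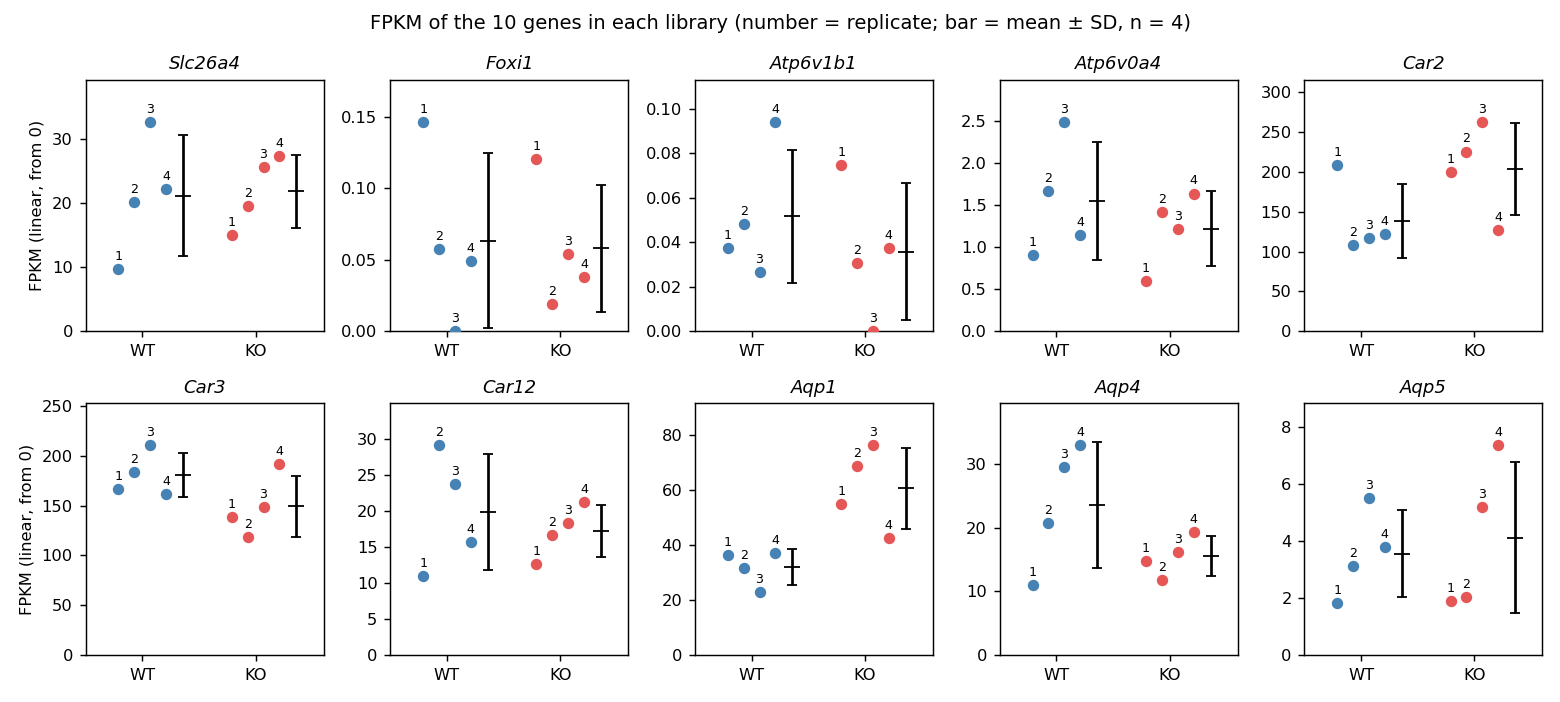
FPKM of the 10 genes in the 4 WT (blue) and 4 KO (red) libraries, with a linear axis from 0 for each gene, numbers giving the replicate and bars giving the mean ± SD. Aqp1 is the gene whose KO points all lie above its WT points, and Foxi1 and Atp6v1b1 stay under 0.15 FPKM.

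The sequence of miR-29a bears on which of these mRNAs could pair with it. The mature miRNAs of the miR-29 family are given 5′ to 3′ from RefSeq (GRCm38.p6), with the seed, bases 2 to 8, in capitals.
mmu-miR-29a-3p: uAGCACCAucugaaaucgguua
mmu-miR-29b-3p: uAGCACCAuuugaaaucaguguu
mmu-miR-29c-3p: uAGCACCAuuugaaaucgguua
All of them share the seed AGCACCA, so a match in an mRNA does not tell miR-29a from the rest of the family, whose levels in the KO mice were not analysed here. The miR-29a sequence lies on chr6:31062673-31062694, minus strand. miR-29b is encoded at chr6:31063025-31063047, minus strand, and at chr1:195037091-195037113, plus strand, and miR-29c at chr1:195037600-195037621, plus strand. The complement of the seed, TGGTGCT, was searched on the sense strand of the longest annotated 3′-UTR of each gene. It was present in 2 of the 10 genes, Foxi1 and Car3, and in 16.7% of the 14837 tested genes with an annotated 3′-UTR. The matched stretches are shown 5′ to 3′ with the match in capitals.
Foxi1: cacttactaTGGTGCTggttcct
Car3: gtctcctccTGGTGCTccctact
The Foxi1 match is at bases 270 to 276 of a 3′-UTR of 1172 bases (chr11:34205234-34205240, minus strand), and the Car3 match is at bases 64 to 70 of 862 (chr3:14871725-14871731, plus strand). Neither match is followed by an A. Foxi1 was near 0 FPKM, and Car3 had a log2 fold change of -0.29. The 3′-UTR of Aqp1, of 1758 bases, and that of Car2, of 680 bases, did not hold these 7 letters. The shorter match GGTGCT, to bases 2 to 7 of the miRNA and contained in the longer one, was present in 5 of the 10 genes, which were Foxi1, Car3, Car12, Aqp1 and Aqp4, and in 36.1% of the tested genes with an annotated 3′-UTR.

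Pendrin mRNA was abundant and did not separate the groups. Slc26a4 (ENSMUSG00000020651, chr12:31519827-31559969) encodes the exchanger that brings bicarbonate into the endolymph, made in outer sulcus and spindle cells of the cochlear duct. Its level was 9.71, 20.1, 32.7 and 22.2 FPKM in WT1 to WT4 and 15.0, 19.5, 25.6 and 27.4 FPKM in KO1 to KO4. All KO values lay within the WT range, which was set by WT1 at the low end and WT3 at the high end. The means were 21.2 ± 9.44 and 21.9 ± 5.71 FPKM, and the log2 fold change was 0.13 with a 95% interval of -0.69 to 0.95 (limma, unadjusted p = 0.724). Without WT1 it was -0.20, so no direction could be given for pendrin.

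Foxi1 (ENSMUSG00000047861, chr11:34204338-34208089), the transcription factor that switches on pendrin and the proton pump in acid-base transporting cells, was near the lowest values in the table. It stood at 0.147, 0.0574, 0 and 0.0493 FPKM in WT1 to WT4 and at 0.121, 0.0191, 0.0543 and 0.0378 FPKM in KO1 to KO4. Ionocytes of the endolymphatic sac make FOXI1, and the other genes listed for them were at mixed levels. Atp6v1g3, a proton pump subunit, reached at most 0.0604 FPKM, Slc4a9, a bicarbonate transporter, at most 0.0525 FPKM, and the transcription factors Ascl3 and Dmrt2 at most 0.818 and 0.457 FPKM. The proton pump subunit Atp6v0d2, which is also on the osteoclast list, was at 0.563 to 7.17 FPKM, and pendrin is on the list too. The pendrin mRNA in these libraries was therefore measured next to almost no mRNA of this transcription factor, in WT and KO alike.

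The proton pump subunits specific to acid-secreting epithelia were minor in the cochlea. Atp6v1b1 (ENSMUSG00000006269, chr6:83742990-83758855) encodes the B subunit of the catalytic part of the pump in kidney intercalated cells and ionocytes. It was at 0.0374, 0.0482, 0.0266 and 0.0942 FPKM in WT1 to WT4 and at 0.0747, 0.0308, 0 and 0.0374 FPKM in KO1 to KO4. It made up 0 to 0.129% of the summed FPKM of the B subunits over the 8 libraries, and the widely expressed Atp6v1b2, at 44.0 to 96.0 FPKM, made up the rest. Both Foxi1 and Atp6v1b1 were under the minimum level and were not tested.

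Atp6v0a4 (ENSMUSG00000038600, chr6:38048483-38124586) encodes the matching a subunit of the membrane part of the pump, through which protons pass. Its level was 0.904, 1.67, 2.49 and 1.14 FPKM in WT1 to WT4 and 0.599, 1.41, 1.21 and 1.63 FPKM in KO1 to KO4. The groups overlapped, and the log2 fold change was -0.31 with a 95% interval of -1.22 to 0.60 (limma, unadjusted p = 0.456). Among the a subunits it took 1.50 to 3.47% of the summed FPKM in WT and 0.931 to 2.01% in KO. In sequence, 4.23% of its 50-base stretches also occur in other genes and a gene on the same strand overlaps it, so a small part of its reads could be shared.

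The proton pump as a whole was near the background of all genes. A list of 25 V-ATPase subunits and accessory proteins had 22 tested genes, of which 0 had an unadjusted p under 0.05 in either direction (5.12% of all tested genes). On the log2 scale 15 of the 22 lay above 0, as did 9962 of all 14990 tested genes. The median log2 fold change of the list was 0.06, and its sign changed to -0.03 with median-ratio scaling and to -0.06 with quantile normalization. The most abundant member of the list was Atp6v0c, a subunit of the proton-carrying ring, at a mean of 98.7 FPKM with a log2 fold change of -0.03 (SE 0.52). Without WT1, 3 of the 22 passed, with Atp6v0d2, a subunit abundant in osteoclasts, higher and Atp6v0e2 and Atp6v1g2 lower, where 19.5% of all tested genes passed.

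Car2 and Car3 were the most abundant of the 10 mRNAs. Car2 (ENSMUSG00000027562, chr3:14886273-14900770) encodes a fast cytosolic carbonic anhydrase of ligament fibrocytes that is also abundant in red cells and osteoclasts. It was at 208, 108, 117 and 122 FPKM in WT1 to WT4 and at 199, 226, 263 and 127 FPKM in KO1 to KO4. WT1 lay with KO1 to KO3, and KO4 lay with WT2 to WT4, so each group held 1 library with the level of the other. The means were 139 ± 46.5 and 204 ± 57.4 FPKM, and the log2 fold change was 0.56 with a 95% interval of -0.11 to 1.22 (limma, unadjusted p = 0.092, adjusted p = 0.947). It became 0.77 without WT1 (unadjusted p = 0.0129, adjusted p = 0.164) and 0.77 without KO4 (unadjusted p = 0.0241, adjusted p = 0.798).

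Car3 (ENSMUSG00000027559, chr3:14863512-14872523), a slow cytosolic carbonic anhydrase best known from skeletal muscle, fat and fibrocytes, lies next to Car2 on the chromosome. Its level was 166, 183, 211 and 162 FPKM in WT1 to WT4 and 138, 118, 149 and 191 FPKM in KO1 to KO4. KO1 to KO3 lay below all WT libraries, and KO4 lay among them. The log2 fold change was -0.29 with a 95% interval of -0.73 to 0.16 (limma, unadjusted p = 0.175), and it stayed below 0 with each library left out in turn, from -0.42 to -0.19. The summed FPKM of 9 skeletal muscle genes was 0.571 to 9.84 in WT and 2.87 to 320 in KO, and that of 8 fat genes was 0.149 to 31.2 in WT and 6.94 to 58.3 in KO. Both sums overlapped between the groups, and their part in the Car3 values was not tested.

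Car12 (ENSMUSG00000032373, chr9:66713686-66766845) encodes a carbonic anhydrase anchored in the cell membrane with its active site outside the cell. It was at 11.0, 29.1, 23.7 and 15.6 FPKM in WT1 to WT4 and at 12.6, 16.7, 18.3 and 21.3 FPKM in KO1 to KO4. As with pendrin, all KO values fell within the WT range, and the log2 fold change of -0.13 had a 95% interval of -0.83 to 0.57 (limma, unadjusted p = 0.680).

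Shares within a library, which do not depend on scaling between libraries, showed the same exchange of libraries for Car2. Of the summed FPKM of 16 carbonic anhydrases, Car2 took 40.2, 22.3, 23.7 and 29.8% in WT1 to WT4 and 44.2, 46.4, 48.1 and 26.9% in KO1 to KO4. Car2 exceeded Car3 in WT1 and KO1 to KO3, and Car3 exceeded Car2 in the other 4 libraries. The family sum itself was 411 to 518 FPKM in WT and 452 to 547 FPKM in KO. Of the 13 carbonic anhydrases tested, 0 had an unadjusted p under 0.05 in either direction (5.12% of all tested genes). On the log2 scale 11 of the 13 lay below 0, as did 5028 of all 14990 tested genes. The list median was -0.16, against 0.10 for all tested genes. Without WT1, 3 of 13 passed, with Car1, the red cell enzyme, and Car2 higher and Car11 lower, which is near the 19.5% of all tested genes that passed in that setting.

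**Figure D2:**
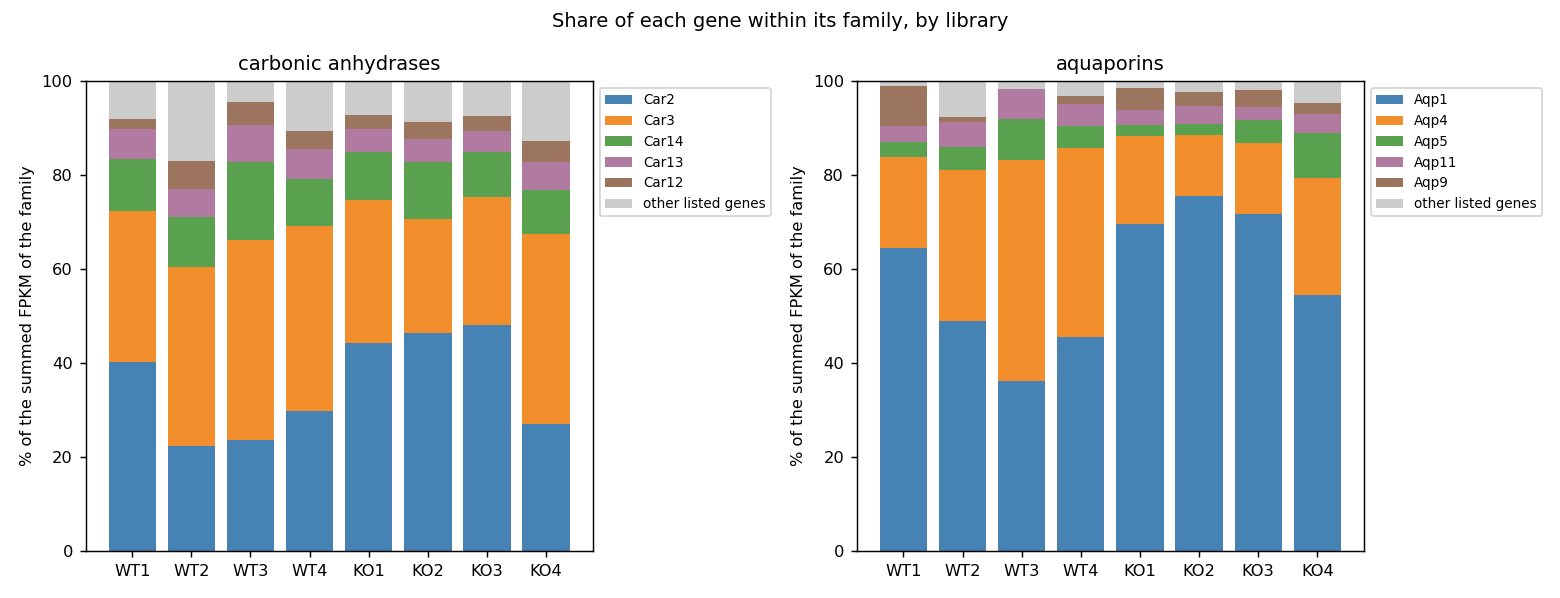
Percent of the summed FPKM of the 16 carbonic anhydrases (left) and the 12 aquaporins (right) taken by each gene in each library, as stacked bars that add to 100%. Car2 takes over 40% in WT1 and KO1 to KO3, and Aqp1 takes 36.1 to 64.4% of the aquaporins in WT and 54.5 to 75.6% in KO.

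Aqp1 (ENSMUSG00000004655, chr6:55336432-55348555) encodes a constitutively open water channel. Its level was 36.4, 31.7, 22.8 and 37.1 FPKM in WT1 to WT4 and 54.8, 68.4, 76.1 and 42.5 FPKM in KO1 to KO4. Every KO library was above every WT library, with the smallest gap between KO4 and WT4. Groups that did not overlap were found for 1 of the 8 tested members, higher in KO, and for 3.50% of all tested genes, with 3.02% higher and 0.487% lower in KO. The log2 fold change was 0.91 (SE 0.23) with a 95% interval of 0.39 to 1.43, an unadjusted p of 0.00361 and an adjusted p of 0.922 by limma. The exact two-sided permutation test gave p = 0.0286, the smallest p that 4 against 4 libraries can give. Any gene whose groups do not overlap reaches this p, so it restates the separation of the groups. The unadjusted p of Aqp1 stayed under 0.05 in all 16 alternative settings, with log2 fold changes of 0.75 to 1.15 and adjusted p-values of 0.145 to 1.0. Relative to the median of all genes, as set by median-ratio scaling, the change of Aqp1 was 0.81.

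Aqp4 (ENSMUSG00000024411, chr18:15389496-15410982) encodes the water channel of the basolateral membranes of supporting cells and of astrocytes. It was at 11.0, 20.7, 29.6 and 33.0 FPKM in WT1 to WT4 and at 14.8, 11.7, 16.1 and 19.4 FPKM in KO1 to KO4. WT2 to WT4 were above all KO libraries, whereas WT1 was below them. The means were 23.6 ± 9.85 and 15.5 ± 3.17 FPKM, and the log2 fold change was -0.51 with a 95% interval of -1.27 to 0.26 (limma, unadjusted p = 0.168, adjusted p = 0.947). Without WT1 it was -0.83 (unadjusted p = 0.00401, adjusted p = 0.145). The summed FPKM of 6 astrocyte markers had a similar order among libraries, with 103 in WT1, 222 to 271 in WT2 to WT4 and 133 to 203 in KO. Among these markers, Gja1 did not share it and had a log2 fold change of 0.13. The order was not particular to astrocytes, since the summed FPKM of 8 strial markers was 146, 273 to 342 and 167 to 236. The part of either cell type in the Aqp4 values was not tested.

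Aqp5 (ENSMUSG00000044217, chr15:99590782-99594829), the water channel of the apical membrane of outer sulcus cells, was the least abundant of the 3 aquaporins. Its level was 1.81, 3.14, 5.50 and 3.79 FPKM in WT1 to WT4 and 1.90, 2.02, 5.21 and 7.36 FPKM in KO1 to KO4. The groups overlapped over most of their range, and the log2 fold change of 0.08 had a 95% interval of -1.06 to 1.22 (limma, unadjusted p = 0.878). The direction was below 0 without WT1 (-0.20), with median-ratio scaling (-0.016) and with quantile normalization (-0.086).

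The aquaporins of a library added up to 56.5 to 81.6 FPKM in WT and 78.0 to 106 FPKM in KO. Aqp1 took 64.4, 49.0, 36.1 and 45.4% of this sum in WT1 to WT4 and 69.5, 75.6, 71.6 and 54.5% in KO1 to KO4, and Aqp4 took 19.5, 32.1, 47.0 and 40.4% and then 18.8, 13.0, 15.2 and 24.9%. The share of Aqp1 in WT1 exceeded that in KO4, so the shares overlapped although the levels did not. Among the 7 aquaporins tested, Aqp1 was the 1 with an unadjusted p under 0.05 and 0 were lower, and the median log2 fold change of the list was 0.11. Without WT1, Aqp1 and Aqp9, a glycerol-permeable channel, were higher and Aqp4 was lower. Without WT1, however, 12.1% of all tested genes were higher and 7.40% were lower at an unadjusted p under 0.05, and 3 of the 8 members (Car2, Aqp1 and Aqp4) stood against that background.

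**Figure D3:**
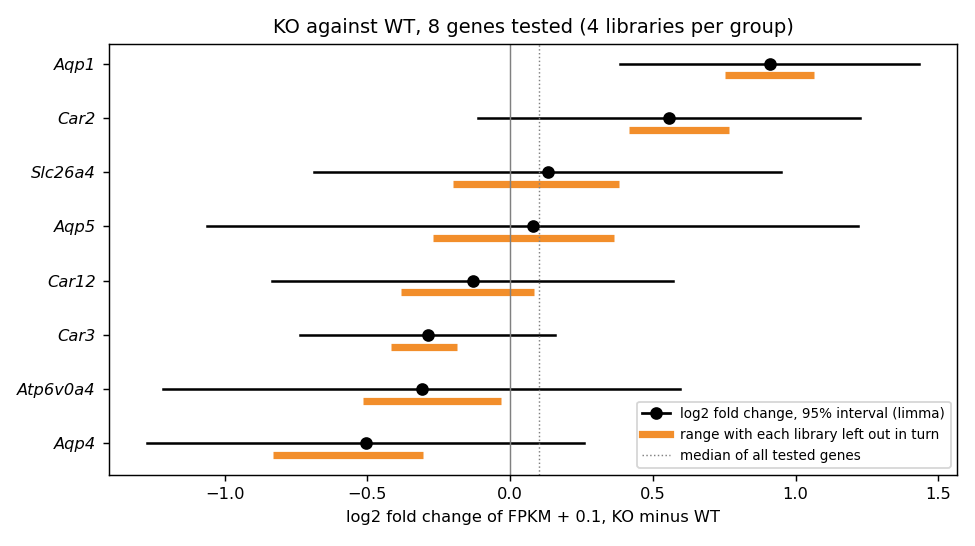
Log2 fold change of FPKM + 0.1, KO minus WT, for the 8 genes tested, with 95% intervals from limma (black) and the range over fits that each omit 1 library (orange). The interval of Aqp1, 0.39 to 1.43, is the one that does not include 0, and the dotted line is the median of all tested genes.

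The summed markers of red cell precursors and of osteoclasts were higher in every KO library than in WT2 to WT4, and WT1 lay among the KO libraries. The summed FPKM of 10 genes of red cell precursors was 7499, 2388, 450 and 3609 in WT1 to WT4 and 6559, 8549, 12130 and 4913 in KO1 to KO4. Most of this sum was Hbb-bs and Hbb-bt, at 4151 and 1799 FPKM in WT1, so it follows these globin genes more than the other genes listed. Of the 10 genes, Epor alone was higher in every KO library (3.7 to 8.3 FPKM) than in every WT library (0.125 to 2.7 FPKM). The same separation was found for 3.02% of all tested genes. All 10 had log2 fold changes above 0 with a median of 1.90, and Epor, Alas2 and Hbb-bt had an unadjusted p under 0.05. Of all 14990 tested genes, 9962 lay above 0 and 4.61% were higher at this threshold. For 8 osteoclast genes the sum was 309 in WT1, 16.9 to 80.0 in WT2 to WT4 and 167 to 312 in KO, with Ctsk, the collagenase of osteoclasts, past the same threshold and 6 of 6 tested genes above 0. Among the KO libraries, Aqp1, Car2 and both sums fell in the same order, from KO3 through KO2 and KO1 to KO4. Among the WT libraries, Aqp1 (22.8 FPKM) and both sums were lowest in WT3, whereas Car2 was lowest in WT2. In WT1, both sums were high and Car2 was high, whereas Aqp1 was at 36.4 FPKM, within the range of the other WT libraries. In KO4, the sums were 4913 and 167 FPKM, above WT2 to WT4, whereas Car2 was at 127 FPKM, near WT2 to WT4. Endothelial markers, 8 genes, added up to 69.1 to 82.9 FPKM in WT and 82.1 to 99.5 FPKM in KO, and 0 of 8 passed. The part of these cells in the Aqp1 and Car2 values was not tested, and in whole cochleae more cells of a type and more RNA per cell cannot be told apart.

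Markers of strial cells, supporting cells, hair cells and spiral ligament fibrocytes overlapped between the groups in their summed FPKM. The 8 strial genes all had log2 fold changes below 0, with a median of -0.50. Of all 14990 tested genes, 5028 lay below 0. Bsnd, a chloride channel subunit, and Tyr, the pigment enzyme, were lower at an unadjusted p under 0.05, as were 0.507% of all tested genes. Bsnd, at 0.325 to 1.21 FPKM, was lower in every KO library than in every WT library, as were 0.487% of all tested genes. The summed FPKM of the strial genes was 146 in WT1, 273 to 342 in WT2 to WT4 and 167 to 236 in KO. Supporting cell genes added up to 200 to 468 FPKM in WT and 253 to 360 FPKM in KO, with 1 of 8 (Tectb) lower. Hair cell genes added up to 77.2 to 249 FPKM in WT and 109 to 248 FPKM in KO, with 0 of 8 passing. Most of the hair cell sum was Pvalb, at 46.7 to 202 FPKM in WT and 82.4 to 209 FPKM in KO. Most of the supporting cell sum was Gjb2 and Gjb6, and Gjb6 is also on the fibrocyte list. These 2 sums therefore follow a few abundant genes more than the other genes listed. Genes of spiral ligament fibrocytes, a list that holds Car3, added up to 1695 to 2591 and 1802 to 2269 FPKM with 0 of 7 passing. In summed FPKM, WT1 was thus the lowest WT library for strial, supporting and hair cell markers. It was also the lowest WT library for pendrin, Atp6v0a4, Car12, Aqp4 and Aqp5.

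**Figure D4:**
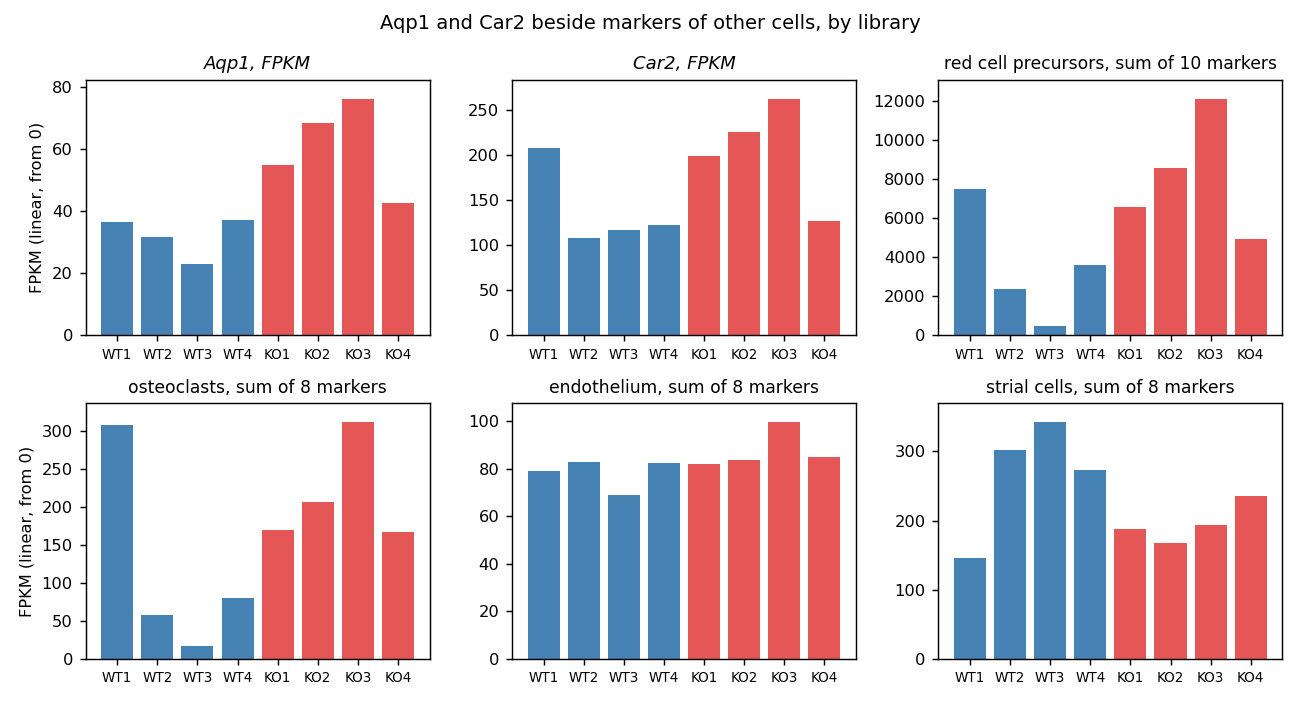
FPKM of Aqp1 and Car2 and summed FPKM of marker genes of red cell precursors, osteoclasts, endothelium and strial cells in each WT (blue) and KO (red) library, on linear axes from 0. The red cell and osteoclast sums are high in WT1 and in the KO libraries, and WT1 has the lowest strial sum, 146.

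Among 29 acid-base and anion transporters, 22 were tested and 0 had an unadjusted p under 0.05 in either direction (5.12% of all tested genes). The median log2 fold change of this list was -0.04, with 10 genes above 0 and 12 below. Of all 14990 tested genes, 9962 lay above 0 and 5028 below. Its most abundant gene was Slc4a11, a membrane transporter of spiral ligament fibrocytes, which was at a mean of 248 FPKM over the 8 libraries, 270.0 FPKM in WT and 226 FPKM in KO, with a log2 fold change of -0.25 (SE 0.25, limma, unadjusted p = 0.339). This mean over all libraries was above that of each of the 10 genes described above, although Car2 exceeded Slc4a11 in KO2 and KO3. Without WT1, 7 of the 22 passed, of which Hvcn1 and Slc4a1, the anion exchanger of red cells, were higher and Slc4a3, Slc4a4, Slc4a8, Slc4a10 and Slc9a5 were lower, against 12.1% higher and 7.40% lower among all tested genes.

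**Figure D5:**
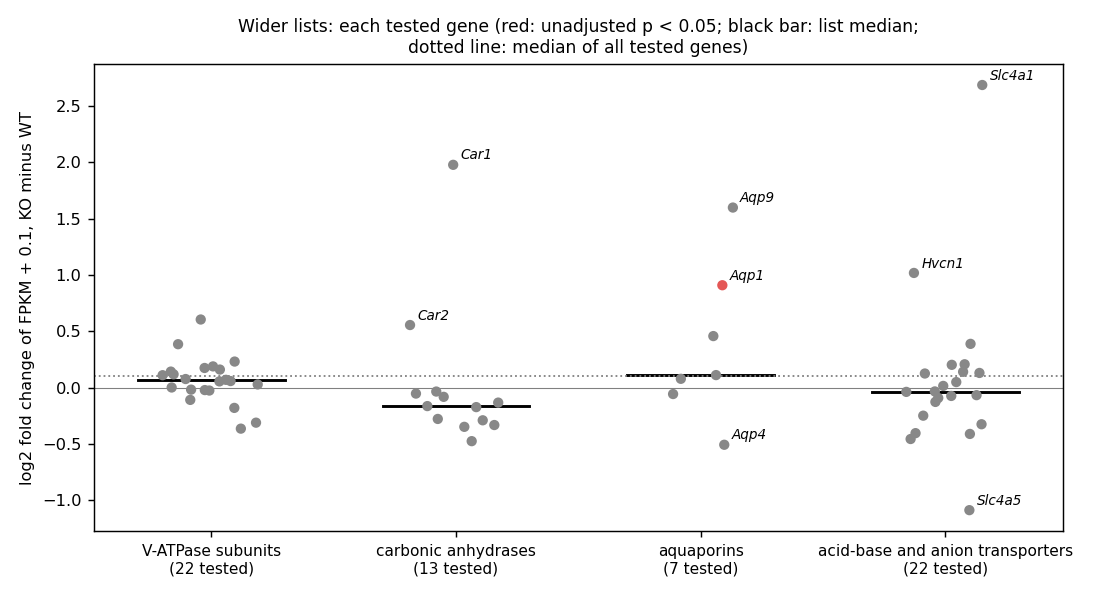
Log2 fold change of FPKM + 0.1, KO minus WT, of every tested gene in the 4 wider lists, with the list median as a black bar and the median of all tested genes, 0.10, as a dotted line. Aqp1 is the 1 gene drawn in red, for an unadjusted p under 0.05, and the list medians lie between -0.16 and 0.11.

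By level the 10 genes fell into steps. Mean FPKM over the 8 libraries was 171 for Car2 and 165 for Car3, 46.2 for Aqp1, 21.5 for Slc26a4, 19.6 for Aqp4 and 18.5 for Car12, then 3.84 for Aqp5 and 1.38 for Atp6v0a4, and 0.0606 and 0.0437 for Foxi1 and Atp6v1b1. Neighbours within a step changed places between libraries, as Car2 and Car3 did, and so did Slc26a4, Aqp4 and Car12. Aqp5 and Atp6v0a4 kept the seventh and eighth place in every library. Aqp1 was in the third place in 7 libraries, and in WT3 it was below Slc26a4, Aqp4 and Car12.

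The genes with patterns most like those of the members were found by the Pearson correlation of log2 values over the 8 libraries among 14125 genes, as a description, since all values of a library share its depth and tissue content. Aqp1 was closest to H2afx (r = 0.985), Ltb (0.977) and Ube2s (0.976), and Car2 to Pfkfb1 (0.986), Crybg1 (0.983) and P4hb (0.981). Slc26a4 was closest to Cds1 (r = 0.993), Tmco3 (0.992) and B3galt5 (0.99), and Aqp4 to Homer1 (0.992), Slain1 (0.982) and Lpgat1 (0.981). For Car12 these were Serinc2 (0.987), Frem2 (0.966) and Iqcb1 (0.963), and for Car3 Zfp873 (0.974), Il1rap (0.938) and Veph1 (0.934). Atp6v0a4 came with Cfap97 (0.983), Tmem19 (0.974) and Tmem150a (0.964), and Aqp5 with Endov (0.967), Mtcp1 (0.957) and Chst14 (0.955). No gene was named by this measure for more than 1 member.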

How the data were processed

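The authors extracted total RNA from cochleae with TRIzol, removed ribosomal RNA, made strand-specific libraries, and mapped paired-end reads with Hisat2. The deposited values are FPKM per gene and library, with fragments divided by transcript length and mapped fragments. The FPKM tool and annotation are not given in the sources used here. The labels name mm9, but 19771 of 21895 genes had the coordinates of GENCODE mouse release 21 (GRCm38), including all 10 genes described. The authors tested counts with DESeq2, and counts were not analysed here.

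The symbols of 27 genes that had become dates were restored from identifiers. No sample column was unused (0 columns). Genes with a mean of at least 0.5 FPKM (14990) were tested on log2(FPKM + 0.1) with limma 3.58.1 (R 4.3.3), with genotype as the only factor, a mean-variance trend and Benjamini-Hochberg adjustment over all tested genes. The threshold was the unadjusted p under 0.05 used in the study. Fold changes on this scale understate those of low genes. Exact permutation tests used SciPy 1.17.1 in Python 3.11.15. The fitting code was tested on simulated data.

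The members, the wider lists and the marker lists were chosen with earlier results of these data known. The text names all members, the genes of each wider list that passed or were most abundant, defining markers, and the 3 genes most alike to each member by Pearson r. Genes named for a call without WT1, and those in the closing observations, were chosen after their values were seen. The alternatives, 16 in all, changed the pseudocount, filter, scaling, variance trend, replicate block or libraries. Replicates 1 to 3 only were among them because the study names 3 libraries per group where the table holds 4. Their use on the wider lists was added after seeing the data.

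Lists not described with the results gave the following. Of 7 sac ionocyte genes 2 were tested and 0 passed. Of 6 astrocyte genes 0 passed. Of 4 tested middle ear airway genes 0 passed. Skeletal muscle and fat each had 1 gene higher in KO, Mylpf and Cfd. Of 3 tested gland genes 1 was higher in KO (Prol1). Of 4 Y-linked genes 1 was lower (Eif2s3y). Among all tested genes 4.61% were higher and 0.507% lower at this threshold.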

Additional observations from a re-analysis of the deposited data

Results flagged for a closer look

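In the WT group, Car2 in WT1 was at 208 FPKM, far above the other 3 WT libraries at 108 to 122 FPKM. The gap to the nearest of them was 0.852 of the range of the group, past the critical value of Dixon's test for 4 samples. It was the 1 such value among 20 groups checked, the 10 genes in WT and in KO, and chance alone marks about 1 group in 20. WT1 also had the highest sums of red cell precursor markers (7499 FPKM) and osteoclast markers (309 FPKM) among the WT libraries, and their part in its Car2 value was not tested.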

How the results depend on the processing

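Aqp1 kept its direction and its side of the threshold in all 16 settings. With each library left out in turn, log2 fold changes were 0.75 to 1.07 for Aqp1, 0.42 to 0.77 for Car2, -0.83 to -0.31 for Aqp4, -0.42 to -0.19 for Car3, -0.52 to -0.03 for Atp6v0a4, -0.20 to 0.38 for Slc26a4, -0.38 to 0.084 for Car12 and -0.27 to 0.36 for Aqp5. The last 3 changed sign, Slc26a4 without WT1, Car12 without WT2 or KO1 (0.0085), and Aqp5 without WT1, KO3 or KO4. Aqp5 was also at -0.016 with median-ratio scaling, -0.086 with quantile normalization and -0.21 with replicates 1 to 3 only, and the cause was not tested. With each library left out, the members with an unadjusted p under 0.05 numbered 1 to 3 and all such genes 347 (without KO3) to 2922 (without WT1), with 377 without KO2. Genes with an adjusted p under 0.05 numbered 0 to 1, 3 without a filter and 1 with replicates 1 to 3 only.

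Of the genes with an unadjusted p under 0.05, 90.1% were higher in KO, 53.3% with median-ratio scaling, 40.9% with quantile normalization and 61.9% without WT1, while the median log2 fold change of all genes was 0.10, 0.0057, -0.037 and -0.024. V-ATPase subunits passing numbered 1 under either scaling (Atp6v1c2, lower) and 0 to 3 with each library left out. Carbonic anhydrases passing numbered 1 with median-ratio scaling, 2 with quantile normalization, 1 with replicates 1 to 3 only and 0 to 3 with each library left out. Aquaporins passing numbered 1 to 3 with each library left out. Acid-base and anion transporters passing numbered 1 without a filter, 1 under either scaling and 0 to 7 with each library left out.

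WT and KO libraries share replicate numbers, and the labels do not say whether libraries with the same number were paired. The departures of a WT and a KO library with 1 number from the mean of each group correlated at 0.419, -0.24, -0.17 and 0.21. With 4 libraries per group, these values cannot tell whether the libraries were paired. In the fit with a replicate block, 838 genes had an unadjusted p under 0.05 and 0 an adjusted one, with 1 member among them (Aqp1, unadjusted p = 0.0162).

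Without counts, the precision from depth could not be given. Foxi1 and Atp6v1b1 had values too low for a test, and 4 libraries per group left wide intervals for Aqp5 and Atp6v0a4.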

Other observations

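Genes of the wider lists that were chosen here after their values were seen varied more between libraries than between groups. Car8, a carbonic anhydrase relative without enzyme activity, was at 30.5 FPKM in WT2 and 19.3 FPKM in KO4, at 6.07 FPKM in WT4 and at 0.571 to 2.91 FPKM in the other 5 libraries. Aqp6, an intracellular aquaporin, had the same high libraries, with 3.71 FPKM in WT2, 2.53 FPKM in KO4 and 0.724 FPKM in WT4, and was listed at 0 in WT1. Slc4a5, a sodium bicarbonate cotransporter, was at 8.70 FPKM in WT2 and at 1.12 FPKM or less in the others. Car1 and Slc4a1, both red cell genes, were lowest in WT3, at 0.207 and 0.385 FPKM, and Car1 reached 27.4 FPKM in WT1 and Slc4a1 126 FPKM in KO3. Aqp9 was also lowest in WT3, at 0.0636 FPKM, and highest in WT1, at 4.88 FPKM. None of these genes had an unadjusted p under 0.05 with limma in all 8 libraries.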
